A study of Mus musculus with 4 samples.

Results

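The tectorial membrane and the otoconial membrane are the extracellular sheets that lie over the hair cells of the inner ear, and 10 genes that build or anchor them, or encode related proteins, were followed here among the 30011 named on the array in the basal organ of Corti of embryos with and without the Sox2-Tbx2LOF genotype. They were Tecta, Tectb, Otog, Otogl, Ceacam16, Otoa, Otol1, Oc90, Umodl1 and Zpld1. Every probe of the array that names one of them was taken, which gave 12 probes among 39429, and 11 probes of 9 genes were bright enough to be tested among 28104. The set was chosen by measured values, since the log2 ratios of these same arrays were known when it was drawn up and Tectb, Umodl1 and Otol1 were picked for their change. The comparison of the genotypes is therefore given for the 10 genes as a description. Where probes of theirs are said to be called, the call comes from the fit over all probes and is no independent evidence, and no p is given for them in this contrast.

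The data came from 4 dual-colour arrays, each of which carried RNA of a Sox2-Tbx2LOF pool and of a control pool of the same sex, so that there were 4 pools per genotype. Sox2-Tbx2LOF embryos were Sox2(creERT2);Tbx2(fl/fl). In them a tamoxifen-dependent Cre recombinase expressed from the Sox2 locus can delete floxed Tbx2 in cells that express Sox2. By the study these include hair cells as well as supporting cells at E16.5, and recombination also reached cells of the adjacent greater epithelial ridge. Controls lacked the recombinase and are labelled Tbx2(fl/n.d.), so that the second Tbx2 allele is not stated there. By the study's mating scheme both parents were Tbx2(fl/fl), so that Cre-negative littermates are Tbx2(fl/fl) as well. Both genotypes were NMRI mouse embryos of E18.5 whose dams received 4 mg of tamoxifen by mouth at E16.5. By the study's methods progesterone was also given at that age. The mating scheme there gives a fluorescent Cre reporter allele to mutants and to their Cre-negative littermates alike. A pool combined organs of Corti of several embryos taken from the base of the cochlea, with the spiral ligament and ganglia removed, and a value is thus a mean over many cell types and animals. In such bulk RNA, fewer cells of a type and less RNA per cell cannot be told apart. The Sox2-Tbx2LOF pool was labelled with Cy3 on arrays 1 and 3 and with Cy5 on arrays 2 and 4. Arrays 1 and 2 held female pools and arrays 3 and 4 male pools.

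The tectorial membrane consists of collagen fibrils within a striated sheet of glycoproteins. Alpha- and beta-tectorin, the products of Tecta and Tectb, form this sheet by way of their zona pellucida domains, a module by which secreted proteins polymerise, and otogelin (Otog), otogelin-like (Otogl) and CEACAM16 add to it. Otoancorin (Otoa) attaches the membranes to the apical surface of non-sensory cells. In the vestibular organs otoconin-90 (Oc90) and the collagen-like otolin (Otol1) form the organic matrix of the otoconia, the calcium carbonate crystals that load the otoconial membrane. Umodl1 and Zpld1 encode further proteins with a zona pellucida domain.

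The 3 genes that stood apart were read by the following probes, printed 5′ to 3′ to show which stretch of each transcript was measured. Tectb had 2 probes, the brighter at base 2480 and the other at base 892 of the transcript, and the latter is printed whole. For Otol1 and Umodl1, whose probes begin at bases 2097 and 4976, only the first 30 of 60 bases are printed.
Tectb: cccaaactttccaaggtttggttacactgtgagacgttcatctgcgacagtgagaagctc
Otol1: atgatggtcatatactctactattctctgg
Umodl1: taagaatgacaaccgggagtctgtgtggct
In mouse build mm9, as the scanner files give it, the Tectb probes lie on the plus strand at chr19:55266006-55266065 and chr19:55270559-55270618, the Otol1 probe at chr3:69832567-69832626 and the Umodl1 probe at chr17:31147589-31147648, both also on the plus strand. The probes of Otog (chr7:53566329-53566388) and Otoa (chr7:128306914-128306973 and chr7:128291203-128291262) are on the plus strand as well. Those of Tecta (chr9:42138356-42139013, which is wider than the probe), Otogl (chr10:107199456-107199515), Ceacam16 (chr7:20437446-20437505), Oc90 (chr15:65707619-65707678) and Zpld1 (chr16:55225666-55225725) are on the minus strand. The sequence AATAAA or ATTAAA, the signal for cleavage and polyadenylation, was found in the probes of Otol1, Umodl1 and Oc90 and in 1 of the 2 Otoa probes, and in no probe of Tectb. Whether a probe lies in coding or untranslated sequence was not annotated in the tables used here.

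Tbx2 is a T-box factor, and the element AGGTGTGA, to which such factors bind in vitro, was searched on both strands of the 300 bases from 250 before to 50 after the annotated starts. RefSeq windows in build GRCm38.p6 were at hand for 7 of the 10 genes, with 2 starts for Tecta, and not for Ceacam16, Oc90 and Otogl. The element was present in 1 of these 8 windows, that of Otog, where it began 18 bases before the start, against 1.28% of 32851 windows of all genes. The shorter GGTGTGA is part of this element, so that its presence in the Otog window follows from the first match. It was in no other of the 8 windows, where 3.98% of all windows held it. The 250 bases before the start are printed for Otog and for the 3 genes that stood apart, on the strand of the gene, with the element in capitals.
Otog, chr7:46240737-46240986, plus strand: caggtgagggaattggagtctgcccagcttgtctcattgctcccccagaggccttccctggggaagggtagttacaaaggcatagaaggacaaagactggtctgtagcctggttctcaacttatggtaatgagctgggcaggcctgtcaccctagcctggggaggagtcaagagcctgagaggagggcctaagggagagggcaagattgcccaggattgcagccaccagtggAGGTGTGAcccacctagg
Tectb, chr19:55180476-55180725, plus strand: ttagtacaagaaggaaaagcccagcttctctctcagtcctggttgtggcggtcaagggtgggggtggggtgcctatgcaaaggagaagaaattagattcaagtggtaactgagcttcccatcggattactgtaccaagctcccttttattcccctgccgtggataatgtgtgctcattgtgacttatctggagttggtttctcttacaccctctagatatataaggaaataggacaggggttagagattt
Umodl1, chr17:30954433-30954682, plus strand: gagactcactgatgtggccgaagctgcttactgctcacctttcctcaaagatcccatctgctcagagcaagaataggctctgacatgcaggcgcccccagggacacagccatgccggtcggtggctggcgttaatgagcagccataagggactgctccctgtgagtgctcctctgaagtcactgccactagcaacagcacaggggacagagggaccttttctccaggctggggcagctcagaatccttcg
Otol1, chr3:70007363-70007612, plus strand: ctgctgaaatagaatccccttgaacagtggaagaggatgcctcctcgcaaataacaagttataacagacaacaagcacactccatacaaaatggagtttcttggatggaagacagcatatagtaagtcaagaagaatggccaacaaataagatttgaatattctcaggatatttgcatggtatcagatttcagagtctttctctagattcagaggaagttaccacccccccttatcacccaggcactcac
These matches describe the letters of the windows and not the binding of Tbx2 to them.

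In the Sox2-Tbx2LOF pools, Tectb and Umodl1 RNA were higher and Otol1 RNA was lower than in the control pools on each of the 4 arrays. Umodl1 was 1.94-fold higher, Tectb 1.62-fold higher at its brighter probe and 1.53-fold higher at the other, and Otol1 1.82-fold lower. The other 6 genes that were bright enough to be tested, Tecta, Otog, Otogl, Otoa, Oc90 and Zpld1, had mean log2 ratios of Sox2-Tbx2LOF over control from -0.10 to 0.10. Probes were called where the adjusted p of a limma fit over all 28104 tested probes was under 0.05 and the mean change at least 1.5-fold. By this rule 4 probes of 3 member genes were called, 3 higher and 1 lower, where 0.249% of all tested probes were called, 0.121% higher and 0.128% lower. By the brightest probe of each gene, 0.273% of 21233 tested genes were called. Without a minimum fold the same 4 member probes passed, where 0.986% of all tested probes passed. These shares are background and nothing is read from them, because the genes were chosen on this contrast. Among the 28104 probes ordered by mean log2 ratio, Umodl1 had the 8th highest value, the Tectb probes the 22nd and 27th highest, and Otol1 the 17th lowest.

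**Figure D1:**
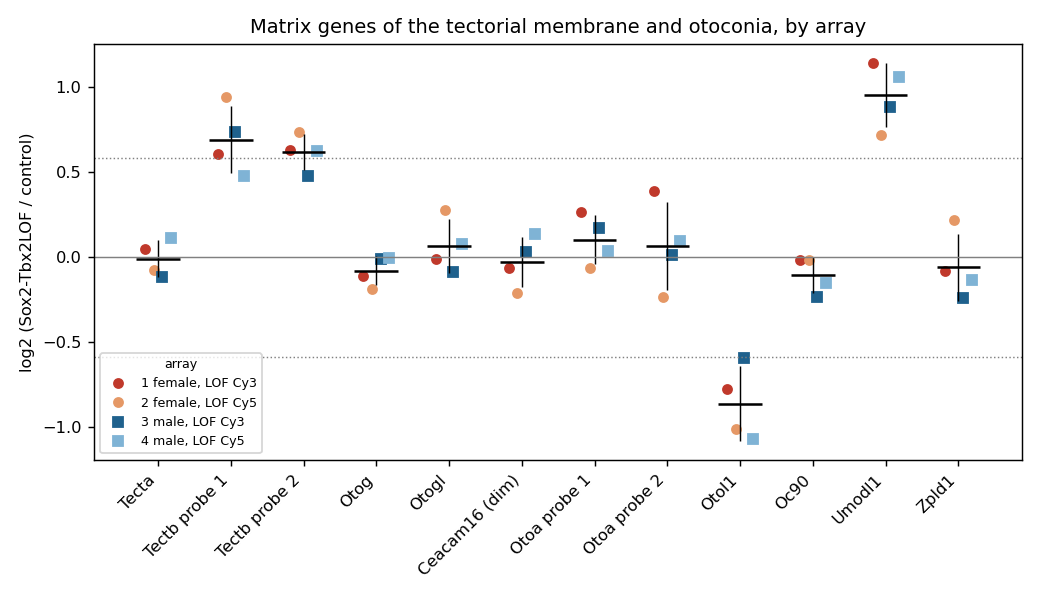
Log2 ratio of Sox2-Tbx2LOF over control for each of the 12 probes on each of the 4 arrays (points, circles female and squares male), with the mean as a bar and the SD as a line, n = 4, and dotted lines at 1.5-fold. Tectb and Umodl1 lie above 0 and Otol1 below 0 on each array, and the remaining probes lie around 0 with means between -0.10 and 0.10.

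The values below are log2 channel levels, that is, background-corrected and normalised intensities of 1 dye, and log2 ratios within an array. Levels of different probes are not comparable with each other, since probes differ in how well they bind. For Tectb, which encodes beta-tectorin, the brighter probe read 16.23, 16.499, 16.58 and 16.29 in the Sox2-Tbx2LOF pools of arrays 1 to 4. The control pools read 15.62, 15.55, 15.84 and 15.81. Each mutant pool was above each control pool, and the lowest mutant pool lay 0.39 above the highest control pool. The log2 ratios were 0.61, 0.95, 0.74 and 0.48, with a mean of 0.69 ± 0.20 (SD, n = 4).

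The second Tectb probe, nearer the 5′ end of the transcript, read 14.08, 14.27, 14.14 and 14.08 in the Sox2-Tbx2LOF pools and 13.45, 13.53, 13.66 and 13.46 in the control pools. Again the groups did not overlap, with 0.42 between the nearest pools. Its log2 ratios were 0.63, 0.74, 0.48 and 0.62, with a mean of 0.62 ± 0.11 (SD, n = 4). The 2 probes thus gave the same direction on each array. The ratio of the brighter probe minus that of the other was -0.02, 0.21, 0.26 and -0.14 on arrays 1 to 4, so that neither probe was the higher one throughout.

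Tecta, the gene of alpha-tectorin, with which beta-tectorin forms the striated sheet, was measured by 1 probe, at base 6627 of its transcript. It read 14.76, 14.84, 14.86 and 14.92 in the Sox2-Tbx2LOF pools and 14.71, 14.92, 14.98 and 14.80 in the control pools. The groups overlapped and the ratio was above 0 on 2 arrays and below it on 2. The mean log2 ratio was -0.01 ± 0.11 (SD, n = 4). The 2 tectorin genes thus differed in their measured ratios, with the lowest Tectb ratio of either probe at 0.48 and the highest Tecta ratio at 0.11. No test of this difference is given, since Tectb was chosen for its ratio.

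Otogelin, a large glycoprotein of the tectorial and otoconial membranes, had Otog levels from 13.37 to 13.45 in the Sox2-Tbx2LOF pools and from 13.37 to 13.58 in the control pools. The ratio was below 0 on 4 of 4 arrays but small, at -0.11, -0.19, -0.01 and -0.003, and its mean was -0.08 ± 0.09 (SD, n = 4). Its relative Otogl ranged from 10.51 to 10.94 in the Sox2-Tbx2LOF pools and from 10.51 to 10.86 in the control pools. The log2 ratios of -0.01, 0.28, -0.09 and 0.08 had a mean of 0.07 ± 0.16 (SD, n = 4), and the groups overlapped.

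Ceacam16, whose product joins the tectorial membrane sheet, had 1 probe that was not well above background on any array in either genotype. It was left out of the tests. Its levels of 6.15 to 6.35 in the Sox2-Tbx2LOF pools and 6.22 to 6.37 in the control pools were at the lower end of what the arrays could tell from background, where the lowest channel level of a probe well above background lay between 6.31 and 6.52 across arrays and genotypes. No fold is given.

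Otoancorin, the anchor of the membranes, was read by 2 Otoa probes. The brighter one ranged from 14.84 to 14.99 in the Sox2-Tbx2LOF pools and from 14.73 to 14.90 in the control pools, and its log2 ratios were 0.26, -0.06, 0.17 and 0.04. The mean was 0.10 ± 0.14 (SD, n = 4). The other probe gave 0.39, -0.24, 0.02 and 0.09, with a mean of 0.07 ± 0.26 (SD, n = 4). Both probes were highest on array 1 and below 0 on array 2, and in neither were the genotypes separated.

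Otol1, which encodes the collagen-like otolin, was the member with lower RNA in the mutant pools. It read 9.19, 9.32, 9.58 and 9.01 in the Sox2-Tbx2LOF pools and 9.96, 10.33, 10.18 and 10.08 in the control pools. Each mutant pool lay below each control pool, with 0.38 between the nearest ones. The log2 ratios were -0.77, -1.01, -0.59 and -1.07, with a mean of -0.86 ± 0.22 (SD, n = 4). The decrease was the smaller one on both arrays with the mutant pool in Cy3, with a mean of -0.68, and the larger one on both arrays with it in Cy5, with a mean of -1.04. The part of the dye in this was not tested.

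Oc90, the gene of the main protein of otoconia, differed from Otol1 in its ratio. Its probe read 16.51, 16.53, 16.37 and 16.47 in the Sox2-Tbx2LOF pools and 16.53, 16.55, 16.61 and 16.62 in the control pools. The ratio was below 0 on 4 of 4 arrays, at -0.02, -0.02, -0.24 and -0.15, and the groups overlapped by less than 0.01 between the highest mutant pool at 16.535 and the lowest control pool at 16.532. The mean was -0.10 ± 0.11 (SD, n = 4). The highest Otol1 ratio, -0.59 on array 3, was thus still below the lowest Oc90 ratio of -0.24, which came from the same array.

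Umodl1 showed the largest ratio of the 10 genes. The Sox2-Tbx2LOF pools read 11.18, 10.96, 11.00 and 11.19 and the control pools 10.04, 10.24, 10.12 and 10.13. The groups were 0.72 apart between the nearest pools, the widest gap among these genes. The log2 ratios were 1.14, 0.72, 0.89 and 1.06, with a mean of 0.95 ± 0.19 (SD, n = 4). Zpld1, which also encodes a protein with a zona pellucida domain, ranged from 8.01 to 8.31 in the Sox2-Tbx2LOF pools and from 8.09 to 8.39 in the control pools. Its log2 ratios were -0.08, 0.22, -0.24 and -0.13, with a mean of -0.06 ± 0.19 (SD, n = 4), and the groups overlapped.

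**Figure D2:**
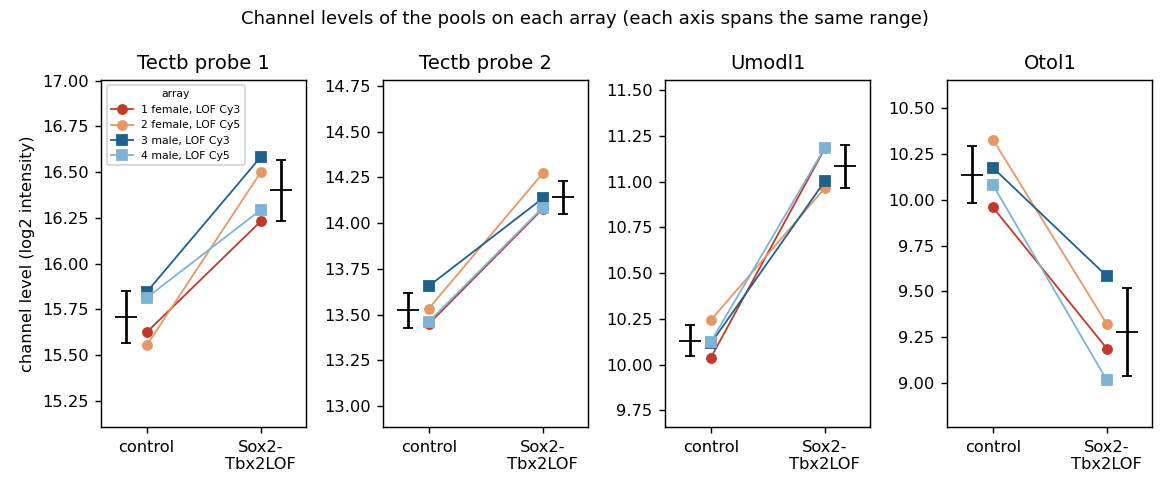
Log2 channel level of the control and Sox2-Tbx2LOF pools for the 2 Tectb probes, Umodl1 and Otol1, with a line for each array and the mean ± SD of the 4 pools beside it; the vertical axes cover ranges of equal width. For each of the 4 probes the pools of the 2 genotypes do not overlap, and the gap between the nearest pools is 0.39, 0.42, 0.72 and 0.38.

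The 4 called probes were those whose genotypes did not overlap, where 2.5% of all tested probes had pools that did not overlap. The same sign on all 4 arrays was found for 6 tested member probes, namely these 4 and those of Otog and Oc90, where 9.02% of all tested probes had it. Each probe was spotted 4 times on an array, and the SD between spots of 1 array was 0.018 to 0.151 for the tested member probes, with a median of 0.059. The SD between arrays was 0.087 to 0.258, with a median of 0.158. The arrays, and not the spots within them, thus set the precision.

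The difference between male and female pools was not used to choose the genes and was tested with limma over all tested probes. For the log2 ratio of the genotypes no member probe passed, each with an adjusted p of 0.9999, and 0% of the 28104 probes were called. At an unadjusted p under 0.05 there was also no member probe, where 2.01% of all probes passed. The male minus female differences of the member ratios ran from -0.25 to 0.14, and their 95% intervals lay within -0.53 and 0.40. For Tectb the ratio was 0.78 in female and 0.61 in male pools at the brighter probe, a difference of -0.17 with a 95% interval from -0.53 to 0.19. For Umodl1 it was 0.93 in female and 0.97 in male pools, a difference of 0.04 with a 95% interval from -0.32 to 0.40. For Otol1 it was -0.89 in female and -0.83 in male pools, a difference of 0.06 with a 95% interval from -0.21 to 0.33. The smallest unadjusted p of the limma fit was that of Zpld1, 0.056, with 0.07 in female and -0.18 in male pools.

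The level itself, taken as the mean of both channels of an array, was compared between the sexes in the same way. No member probe passed with limma, with adjusted p from 0.694 to 0.999, where 0.0463% of all probes were called. At an unadjusted p under 0.05 no member probe passed, where 7% of all probes did. The differences of the log2 level, male minus female, ran from -0.13 for the dimmer Otoa probe to 0.16 for the brighter Tectb probe, and their 95% intervals lay within -0.28 and 0.36. With 2 arrays of each sex, smaller differences than these intervals could not be resolved.

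**Figure D3:**
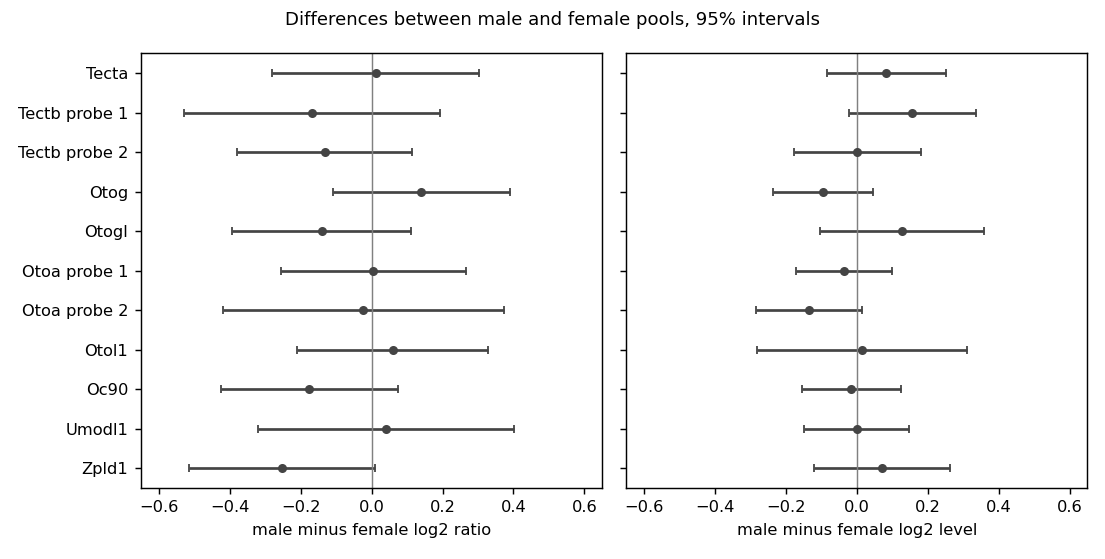
Male minus female difference of the log2 ratio of the genotypes (left) and of the log2 level of both genotypes together (right) for the 11 tested probes, with 95% intervals from limma, 2 arrays per sex. All intervals include 0.

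Genes related to the 10 members were taken as 8 lists of 102 genes, of which 100 were on the array and 77 were tested, each by its brightest probe. None was called, where 0.273% of all tested genes were called, and the median log2 ratio of the 77 genes was 0.01, against 0.002 for all tested genes. At an unadjusted p under 0.05 in the limma fit there were 8 of the 77 genes, against 7.73% of all tested genes. Without a minimum fold 1 of the 77 genes passed in the limma fit, where 1.12% of all tested genes did. This was Strc, the gene of stereocilin, which links the hair bundles of outer hair cells to the tectorial membrane. Its log2 ratios were 0.64, 0.26, 0.38 and 0.23, higher on 4 of 4 arrays, with a mean of 0.38 ± 0.19 (SD, n = 4) and an adjusted p of 0.0176 with limma.

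The list of tectorial membrane partners also held the fibrillar collagen genes of the membrane, and 9 of its 11 genes had mean ratios above 0, with a list median of 0.07. Next to Strc the largest value was that of Col9a1, a chain of collagen IX, at 0.15 ± 0.12 (SD, n = 4). In the list on otoconia formation and endolymph calcium, 13 of 14 genes were tested and the median was 0.03. The largest values were 0.13 ± 0.19 for Spp1, the gene of osteopontin, and 0.10 ± 0.23 for Noxo1, which organises the NADPH oxidase needed for otoconia (SD, n = 4). Nox3, the oxidase itself, was too dim, and Otop1, a proton channel needed for otoconia, was at -0.04 ± 0.03 (SD, n = 4). Neither list thus held a called gene beside the matrix genes that stood apart.

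The families that share a protein module with a member held no called gene either. Of the zona pellucida domain genes 4 of 11 were tested, with Tgfbr3, a co-receptor of TGF-beta, at 0.11 ± 0.19 and Eng, its relative in the endothelium, at -0.08 ± 0.25 (SD, n = 4). Of the genes with the von Willebrand D domain found in the otogelins and alpha-tectorin, 12 of 13 were tested. Vwf, of von Willebrand factor, was highest in size at 0.13 ± 0.25 and Sned1, an extracellular matrix gene, next at 0.12 ± 0.08 (SD, n = 4). The list of genes with the C1q domain that otolin carries, 22 of 27 tested, had C1ql3, a synaptic organiser, at 0.16 ± 0.11 and C1qtnf2 at 0.15 ± 0.15 (SD, n = 4). Of the secreted phospholipases A2, whose fold otoconin-90 shares, 10 of 12 were tested, with Pla2g2d at 0.24 ± 0.14 and Pla2g3 at -0.08 ± 0.15 (SD, n = 4). The 2 genes of the mesothelin family, to which otoancorin is related, were at -0.04 ± 0.30 for Msln and -0.07 ± 0.39 for Mslnl (SD, n = 4). In the CEACAM family, 3 of 12 genes were tested, with Ceacam2 at -0.04 ± 0.23 and Ceacam20 at -0.03 ± 0.11 (SD, n = 4).

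**Figure D4:**
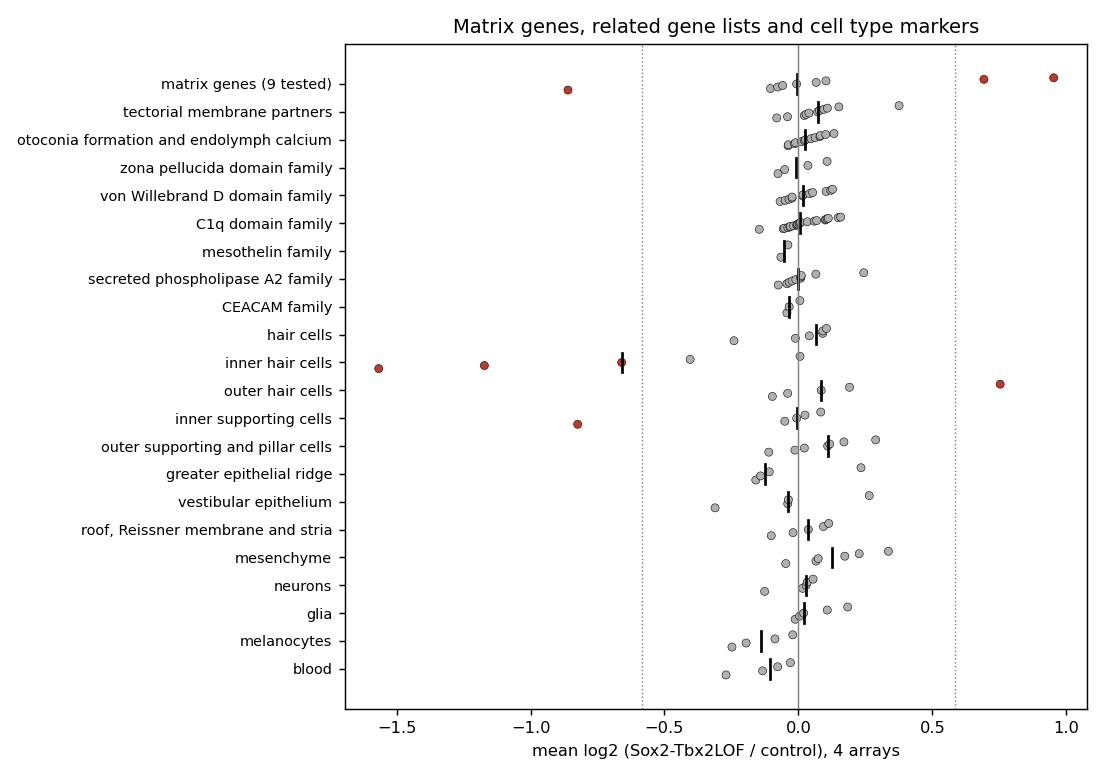
Mean log2 ratio of Sox2-Tbx2LOF over control over 4 arrays for the brightest tested probe of each gene, by list; red points are called genes, black bars list medians and dotted lines 1.5-fold. The 8 lists of related genes hold no called gene, while among the marker lists 3 inner hair cell genes and 1 inner supporting cell gene are lower and 1 outer hair cell gene is higher.

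Markers of some cell types of the tissue differed between the same pools as Tectb, Umodl1 and Otol1. The lists were chosen with earlier results of these data known, and the study names Fgf8, Cabp2, Slc17a8 and Fgf20 from these same arrays. Calls among the markers are thus a description and no independent evidence. Over all tested genes 0.273% were called. Of 5 inner hair cell markers 3 were called lower, namely Fgf8 at -1.57 ± 0.07, Cabp2 at -1.17 ± 0.10 and Slc17a8 at -0.66 ± 0.20 (SD, n = 4). Otof, at -0.40 ± 0.19 (SD, n = 4) with an adjusted p of 0.0099 with limma, fell short of the minimum fold. Calb2 did not differ, at 0.006 ± 0.24 (SD, n = 4). The mean level of this list, over all 5 genes, ranged from 9.18 to 9.44 in the Sox2-Tbx2LOF pools and from 9.82 to 10.18 in the control pools. Of 5 inner supporting cell markers Fgf20 alone was called, at -0.82 ± 0.22 (SD, n = 4), while Lfng, Slc1a3, Fabp7 and Cdh2 had mean log2 ratios from -0.05 to 0.08, with 2 of them above 0. The mean level of the list, over 5 genes that include Fgf20, ranged from 12.70 to 12.93 in the mutant and from 12.95 to 13.06 in the control pools, and its median log2 ratio was -0.01. Of 6 outer hair cell markers Strip2 was called higher at 0.75 ± 0.26 (SD, n = 4), and Slc26a5 was too dim. The list ranged from 10.97 to 11.10 in the mutant and from 10.83 to 10.91 in the control pools. None of 6 markers common to hair cells was called, and all 6 were well above background. Of these markers 4 had ratios above 0. Only 1 passed at an unadjusted p under 0.05 in the limma fit. This was Gfi1, at -0.24 ± 0.14 (SD, n = 4) with an adjusted p of 0.0639 with limma. None of 7 markers of outer supporting and pillar cells was called, but 5 had ratios above 0 and 3 passed at an unadjusted p under 0.05, with Hey2 at 0.29 ± 0.08 (SD, n = 4) and an adjusted p of 0.0409 with limma. Of 6 mesenchyme markers none was called, with an adjusted p of 0.0608 with limma for Col1a1 at 0.34 ± 0.23 (SD, n = 4), and 5 had ratios above 0 and 3 passed at the unadjusted threshold. The 4 tested markers of melanocytes and the 4 of blood all had ratios below 0, with medians of -0.14 and -0.11, none was called, and 1 of each list passed at the unadjusted threshold. Of 5 glial markers 1 passed at that threshold and of 5 neuronal markers 0, and none was called.

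The tectorial membrane proteins are made in part by the greater epithelial ridge, the epithelium on the inner side of the organ of Corti, and none of its 4 markers was called, though all 4 passed at an unadjusted p under 0.05 in the limma fit, where 7.73% of all tested genes did. They differed in direction, with Epyc at 0.23 ± 0.25 and Rorb, Crabp1 and Fgf10 at -0.11 ± 0.04, -0.14 ± 0.05 and -0.16 ± 0.15 (SD, n = 4). The list had a median of -0.13 and mean levels from 12.10 to 12.32 in the mutant and from 12.20 to 12.34 in the control pools. Of 5 vestibular markers 4 were tested and none called, with Nox3 too dim, and 2 passed at the unadjusted threshold in opposite directions, Ocm at 0.26 ± 0.14 and Cyp26b1 at -0.31 ± 0.37 (SD, n = 4). The list ranged from 10.16 to 10.29 in the mutant and from 10.17 to 10.31 in the control pools. Of 6 markers of roof, Reissner membrane and stria 5 were tested, none was called and 0 passed at the unadjusted threshold, with Kcne1 too dim, and the list ranged from 11.99 to 12.08 in the mutant and from 11.94 to 12.10 in the control pools. The part of any of these marker lists in the ratios of the matrix genes was not tested.

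Tbx2 RNA itself, the target of the deletion, averaged -0.15 ± 0.14 on the log2 ratio scale (SD, n = 4) and was not called. Its probe lies at base 3502 of the transcript, and whether the deleted part includes it is not given in the sources used here, so that it checks nothing. Sox2, whose locus carries the recombinase in the mutant embryos only, was at 0.23 ± 0.09 (SD, n = 4). Its log2 ratios were 0.31, 0.11, 0.27 and 0.25. The pools of the genotypes did not overlap, where 2.5% of all tested probes had such pools. It was not called, with an adjusted p of 0.0872 with limma. The part of the recombinase allele in this was not tested.

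For the 3 genes that stood apart, the tested genes with the nearest log2 ratios over the 4 arrays were listed, by Euclidean distance. Nearest to Tectb were Clca3a2, a regulator of chloride conductance, at 0.19, the predicted gene Gm15952 at 0.20 and Ren1, the gene of renin, at 0.27. Nearest to Umodl1 were the water channel gene Aqp8 at 0.40, the zinc finger gene Insm2 at 0.42 and 1810062G17Rik at 0.48. Nearest to Otol1 were Corin, which encodes a membrane protease, at 0.30, the predicted gene Gm35208 at 0.37 and Asic4, of the acid-sensing ion channel family, at 0.38. The mean log2 ratios of these neighbours ran from 0.60 for Ren1 to 1.04 for 1810062G17Rik on the higher side and from -0.87 for Gm35208 to -0.94 for Asic4 on the lower side. Likeness over 4 arrays is a description of these pools.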

How the data were processed

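Groups, dyes and sexes were taken from the deposited labels. RNA of 4 independent pools per genotype, by the study's methods, was hybridised to Agilent mouse arrays in dual-colour mode. The methods name the 4x44K format, while the scanner data held 174979 spots per array, of which 157716 were probe spots. The format is thus not settled here. The deposited scanner files, made by the authors with Agilent Feature Extraction 10.7.3.1 (submitters' processing notes), hold mean and local background intensity per spot, per the file headers, and a deposited log10 ratio of red over green. The authors' value table holds a signed fold change, a score whose normalization is not given in the sources used here. Its log2 values correlated with the ratios used here at r = 0.90 to 0.93 over all probes of an array, in the direction Sox2-Tbx2LOF over control, and the median of each of its columns was 1.

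The members and lists were chosen with earlier results of these data known. Intensities were corrected with normexp (offset 50) and loess-normalised within arrays, with control spots and spots marked as outliers given no weight, and the spots of a probe were averaged in limma 3.58.1 (R 4.3.3). Ratios were turned to Sox2-Tbx2LOF over control. Channel levels used Aquantile scaling of the array averages. A probe was tested where over 0.5 of its spots were well above background on at least 3 of 4 arrays in either genotype. The limma fit had a dye term, and p-values were adjusted by the Benjamini-Hochberg method over all tested probes, with a called probe at adjusted p under 0.05 and at least 1.5-fold. Sex differences were fitted for the ratio, with the dye term, and for the level. The scripts were tested on simulated data. Named genes were all members, called related genes and the 2 largest mean ratios by size of each related list, and the 3 nearest genes of each member with at least 1.5-fold. The arrays shared 1 slide and 1 scan. The same number marks the pools that share an array, and the deviations of these pools from their group means correlated at r = -0.33 to 0.32, while the ratio within an array pairs them by design. The number of arrays, and not a read depth, limits the precision. Signals over background were well above it for 73.96 to 75.20% of green and 70.36 to 70.88% of red spots. Alternatives were other background corrections, median centring, the deposited ratios, other filters, no dye term, no pairing, no minimum fold, and each array left out.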

Additional observations from a re-analysis of the deposited data

How the results depend on the processing

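Tectb, Umodl1 and Otol1 kept their direction under each alternative run, with plain means of the log2 ratios of 0.61 to 0.76, 0.89 to 1.03 and -0.95 to -0.79. The fits with the dye term that decide the calls gave 0.58 to 0.81 for the brighter Tectb probe, 0.87 to 1.04 for Umodl1 and -0.91 to -0.82 for Otol1 when an array was left out. Of 130 recomputed mean ratios of the 10 genes 1 moved by more than the SD between arrays, that of Ceacam16, to -0.75 with local background subtracted. The 4 member probes stayed called except for 0 in the authors' value table, where their mean ratios were 0.61 to 1.01 in size, and 3 without array 1 or array 2, where the second and the brighter Tectb probe, in that order, came to 0.58 in these fits, just under the minimum fold. Without the pairing of pools on an array (no replicate block), 57 probes in all were called and the 4 member probes among them. Over all tested probes the 70 calls became 119 with background subtracted, 124 with the scanner's log ratio, 1 in the value table, 277 without a minimum fold, and 68 to 106 when an array was left out, the highest without array 1. Related genes called became 1 without a minimum fold. The 13 probes called for the sex difference of the level became 6 with a normexp offset of 0 and 1 with background subtracted. The sex difference of the ratio had 0 calls under each of 9 alternatives with limma, and 566 probes at an unadjusted p under 0.05 in the fit reported. Apart from the Tectb calls, whose cause lies in the fold threshold, the cause was not tested.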
